A study of Mus musculus with 8 samples.

Results

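The mouse X chromosome carries a dense array of miRNA hairpins of the testis-enriched type, among them miR-465, miR-741, miR-743, miR-871 and miR-881. Its mature arms were followed here across 8 small RNA libraries. Members were taken by name: every arm of miR-201, miR-463, miR-465a to d, miR-470, miR-471, miR-509, miR-547, miR-741, miR-742, miR-743a, miR-743b, miR-871, miR-878, miR-880, miR-881, miR-883a and miR-883b. The rule found 40 of the 1978 mature miRNAs in the C2C12 hairpin tables, 14 of 605 in the C2C12 ATF4 table and 16 of 696 in the P19 table. The 3p arms of miR-465a, miR-465b and miR-465c had identical values in every library and are counted as 1 member, written miR-465a/b/c-3p, which leaves 38, 12 and 14 members.

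Small RNA was sequenced from 1 library per condition. C2C12 cells, a mouse skeletal myoblast line, carried a short hairpin RNA against Perk (shPerk) or a control hairpin (shNC) and were sampled at day 0 and at day 3 of differentiation, which gave 4 libraries of raw read counts. C2C12 cells with an empty vector or with an ATF4 vector gave 2 libraries, and P19 cells, a mouse embryonal carcinoma line, with shNC or shPerk gave another 2, all 4 deposited as RPM, reads scaled to 1000000 miRNA reads. PERK is an endoplasmic reticulum kinase of the unfolded protein response, and ATF4 is a transcription factor whose translation PERK signaling raises. In C2C12 the hairpins were introduced by lentivirus into stable lines under puromycin selection, and ATF4 was driven by the EF1α promoter. How the P19 cells received their hairpins is not stated in the sources used here. The labels give no day for the vector and ATF4 cells, which according to the paper were kept in growth medium without induced differentiation. For the P19 cells the labels say neither at which day they were taken nor whether they had been induced. Perk and Atf4 mRNA are not read by small RNA libraries, so neither knockdown nor overexpression was checked here.

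These hairpins belong to a rapidly evolving X-linked miRNA family that lies between Slitrk2 and Fmr1 in mammals and is known mainly from testis, where germ cells and Sertoli cells express many of its members. Each hairpin is cut by Drosha and Dicer into a duplex whose 5p or 3p arm is then kept by an Argonaute protein, and the bases of the seed at the 5′ end of the kept arm direct it to its target mRNAs. Neighbouring hairpins on 1 strand are often processed from shared primary transcripts. In muscle cells the well known miRNAs are others, such as miR-1, miR-133 and miR-206.

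In the GRCm38 annotation the members came from 22 hairpin genes, all on the minus strand of chromosome X and none inside another annotated gene. They formed 2 blocks. The first block held 19 hairpins within 62.4 kb at chrX:66776757-66839125, from Mir743 to Mir465, and its nearest coding gene on the lower side was Slitrk2 at chrX:66649318-66661393. The second block held Mir201, Mir547 and Mir509 at chrX:67988096-68010179, 1149 kb beyond the first, with Fmr1 at chrX:68678541-68717963 as the next coding gene. The median gap between neighbouring hairpins of the first block was 3166 bases.

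The mature sequences of all 40 arms were found in RefSeq (GRCm38.p6). The arms below are those that reached 50 CPM or RPM in at least 1 library, with miR-547-3p, the most abundant arm of the second block, for contrast. They are shown 5′ to 3′ with the seed (bases 2 to 8) in capitals.
miR-881-3p (chrX:66801954-66801975): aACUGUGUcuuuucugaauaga
miR-465a-3p (chrX:66839063-66839084): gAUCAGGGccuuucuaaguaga
miR-871-3p (chrX:66810438-66810460): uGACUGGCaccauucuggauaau
miR-465c-5p (chrX:66826004-66826025, the first of 2 copies): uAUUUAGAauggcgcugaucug
miR-741-3p (chrX:66796809-66796831): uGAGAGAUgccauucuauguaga
miR-743b-3p (chrX:66777266-66777287): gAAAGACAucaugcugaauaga
miR-470-5p (chrX:66813995-66814017): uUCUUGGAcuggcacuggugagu
miR-880-3p (chrX:66800540-66800561): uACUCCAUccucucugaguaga
miR-743a-3p (chrX:66776760-66776781): gAAAGACAccaagcugaguaga
miR-547-3p (chrX:67988383-67988403): cUUGGUACaucuuugagugag

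The seeds were diverse, with 32 different seeds among the 40 arms. Of the arms shown, only miR-743a-3p and miR-743b-3p shared a seed (AAAGACA). The other shared seeds were AUUUAGA in the 4 miR-465 5p arms, AUCAGGG in the identical 3p arms of miR-465a, b and c, AACUGCA in miR-883a-3p and miR-883b-3p, and AUUCAGA in miR-743a-5p and miR-871-5p. Of the 18 distinct 3p sequences of members, 7 ended in UAGA (38.9%), an ending chosen after the sequences were seen, against 10 of the 705 distinct mouse 3p sequences in the RefSeq table (1.42%), which include those 7. The arms that are paralogous copies can share reads, and how the authors assigned reads that match several miRNAs is not given in the sources used here.

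PERK knockdown libraries held far more reads of this cluster than their controls at both times. The summed level of the members was 104 CPM (reads scaled to 1000000 reads on miRNAs) in the shNC library and 1532 CPM in the shPerk library at day 0. At day 3 it was 85.0 CPM in shNC and 2944 CPM in shPerk. As a share of all miRNA reads the cluster made up 0.0104% and 0.00851% of the control libraries and 0.153% and 0.294% of the knockdown libraries. After scaling by the trimmed mean of M values (TMM, which sets the bulk of miRNAs equal), the shPerk sum was 43.6-fold the shNC sum at day 3 and 16.2-fold at day 0. The log2 ratios were 5.45 (95% interval from reads 5.36 to 5.54) and 4.01 (3.93 to 4.10). These intervals, and all others here, cover counting error only, since each condition had 1 library. In bulk RNA, a change in how many cells express a miRNA and a change in its level per cell cannot be told apart.

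**Figure D1:**
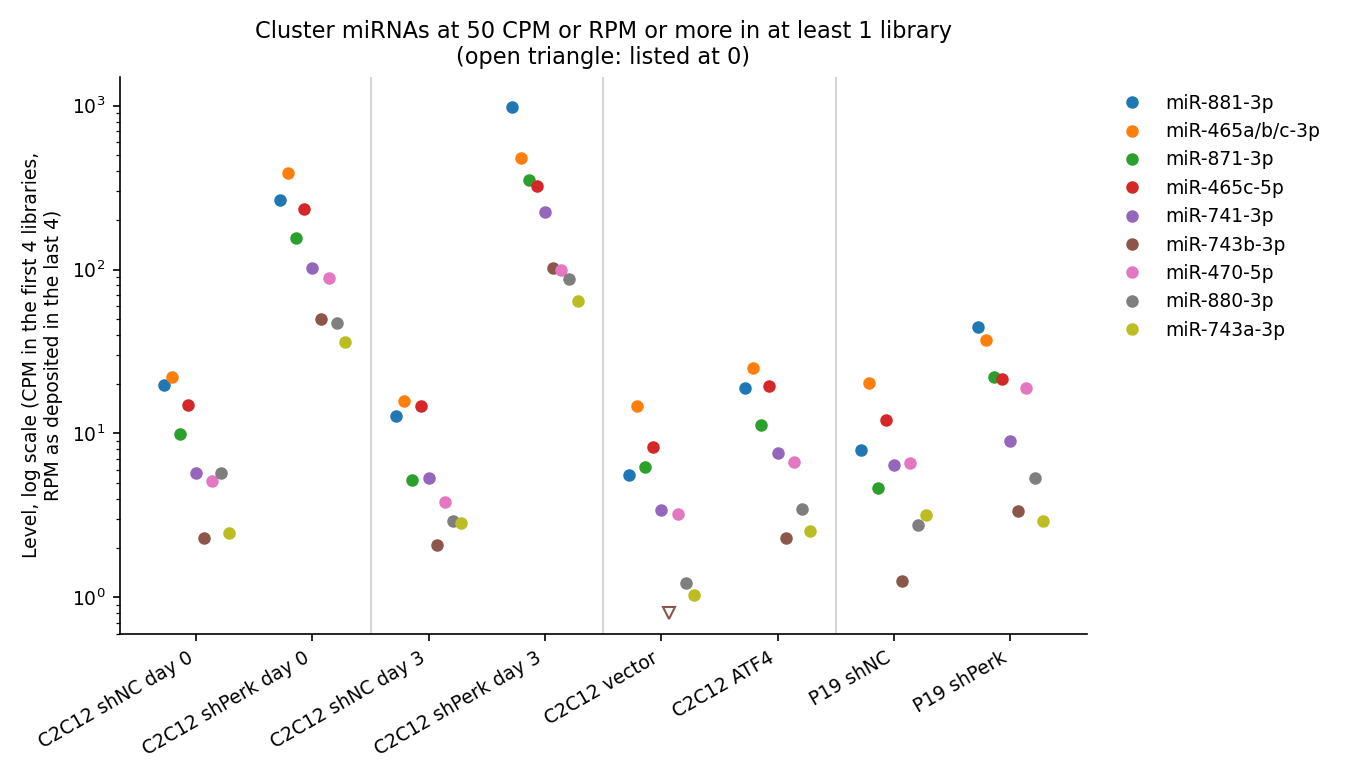
Level of the 9 cluster miRNAs at 50 CPM or RPM or more in at least 1 library, on a log axis, as CPM in the 4 C2C12 hairpin libraries and as deposited RPM in the other 4; each point is 1 library. In C2C12 all 9 stand higher in both shPerk libraries than in both shNC libraries, with miR-881-3p at 984 CPM in shPerk at day 3 as the highest point.

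The libraries held the lineage markers of their labels, and these moved too. The summed level of 4 muscle miRNAs (miR-206-3p, miR-1a-3p, miR-133a-3p and miR-133b-3p) was 19165 CPM in shNC and 3839 CPM in shPerk at day 0, and 88480 CPM in shNC and 24312 CPM in shPerk at day 3. In the vector, ATF4, P19 shNC and P19 shPerk libraries it was 2467, 3790, 34.5 and 96.9 RPM, and miR-206-3p was not listed in the P19 table. The 6 markers of embryonic stem and embryonal carcinoma cells, such as miR-294-3p and miR-302b-3p, summed to between 0 and 0.265 CPM in the C2C12 hairpin libraries and to 172116 and 403102 RPM in P19 shNC and shPerk. The part of these shifts in the cluster's levels was not tested.

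At day 3, miR-881-3p had the most reads of the members in the shPerk library, with 12.8 CPM in shNC and 984 CPM in shPerk (153 and 9275 reads). Its log2 fold change of 6.60 (6.37 to 6.84) was the highest of any miRNA with a mean of at least 10 CPM, and the 11 miRNAs at the head of that order were all members. The next was miR-871-3p, from 5.17 to 354 CPM (62 and 3333 reads), a log2 fold change of 6.42 (6.07 to 6.81). miR-743b-3p went from 2.08 to 103 CPM (25 and 970 reads), a log2 fold change of 5.95 (5.39 to 6.59). These 3 arms come from 3 separate hairpins with different seeds. miR-741-3p measured 5.34 CPM in shNC and 223 CPM in shPerk (64 and 2103 reads), a log2 fold change of 5.71 (5.36 to 6.10).

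The miR-465 arms were abundant in both libraries and moved somewhat less. miR-465a/b/c-3p measured 15.8 CPM in shNC and 479 CPM in shPerk at day 3 (190 and 4514 reads), a log2 fold change of 5.25 (5.04 to 5.47). Its partner miR-465c-5p measured 14.7 and 325 CPM (176 and 3064 reads), a log2 fold change of 4.80 (4.58 to 5.03). The intervals of the 2 arms of this hairpin group did not overlap.

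Of the remaining arms above 50 CPM, miR-880-3p measured 2.92 CPM in shNC and 88.1 CPM in shPerk (35 and 831 reads). miR-470-5p, an arm known to target Nanog and Pou5f1 in embryonic stem cells, measured 3.84 and 99.6 CPM (46 and 939 reads). miR-743a-3p, which shares its seed with miR-743b-3p, measured 2.83 and 64.1 CPM (34 and 604 reads). Their log2 fold changes were 5.24, 5.03 and 4.82, in the same order.

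In all, 24 of the 38 members could be tested at day 3, since they reached 1 CPM in at least 1 of the 2 libraries, and all 24 were called higher in shPerk. The background was 21.0% of the 575 miRNAs tested. Calls needed a log2 fold change beyond 1 and an adjusted p under 0.05 in a two-sided exact binomial test of the reads, which compares 2 libraries and not 2 conditions. The largest adjusted p among the 24 was 0.00876, for miR-201-5p (8 and 16 reads). The median log2 fold change of the 24 was 4.93, or 4.83 with counts under 3 reads set to 3, against 0.01 over all miRNAs tested. Members that passed only through the shPerk library had to differ, and for the 14 that reached 1 CPM in the shNC library itself the log2 fold changes ran from 1.79 to 6.60. The other 14 members stayed under the filter, 6 of them with 0 reads in both libraries.

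At day 0 the same arms were already apart. miR-465a/b/c-3p was the most abundant, with 22.1 CPM in shNC and 389 CPM in shPerk (250 and 3425 reads), a log2 fold change of 4.27 (4.09 to 4.46). miR-881-3p measured 19.7 and 266 CPM (223 and 2345 reads), a log2 fold change of 3.89 (3.69 to 4.10). Its value at day 3 lay above this interval.

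miR-465c-5p measured 14.8 and 236 CPM at day 0 (168 and 2076 reads). miR-871-3p measured 9.98 and 156 CPM (113 and 1374 reads). miR-741-3p measured 5.74 and 102 CPM (65 and 899 reads). The log2 fold changes of these 3 arms were close to each other, at 4.12, 4.10 and 4.28.

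miR-470-5p measured 5.12 and 89.0 CPM at day 0 (58 and 783 reads), miR-743b-3p 2.30 and 49.9 CPM (26 and 439 reads). miR-880-3p measured 5.74 and 46.9 CPM (65 and 413 reads), and miR-743a-3p 2.47 and 36.2 CPM (28 and 319 reads). Among these 4, miR-743b-3p had the highest log2 fold change, 4.57 (4.004 to 5.21), and miR-880-3p the lowest, 3.16 (2.78 to 3.56).

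Of the 38 members, 25 could be tested at day 0 and all 25 were called higher in shPerk, against a background of 15.4% of 602 miRNAs. The largest adjusted p of the exact binomial test on reads was 0.000198, for miR-883b-5p (3 and 17 reads). The median log2 fold change was 3.89, or 3.86 with low counts set to 3 reads, against -0.06 over all miRNAs tested. The 12 members at 1 CPM or more in the shNC library had log2 fold changes from 2.58 to 4.57. Of the 13 not tested, 7 had 0 reads in both libraries. Over the 4 hairpin libraries, 26 members reached 1 CPM in at least 1, and in 24 of them both shPerk libraries stood above both shNC libraries, against 131 of 625 among all miRNAs (21.0%). The exceptions were miR-465b-5p, with 10 reads in shPerk at day 3 and 0 elsewhere, and miR-883b-5p, with 3, 17, 1 and 0 reads in shNC day 0, shPerk day 0, shNC day 3 and shPerk day 3. For members that reached 1 CPM only in a shPerk library this order was largely set by the filter. The 14 at 1 CPM or more in shNC at day 3 were all among the 24.

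**Figure D2:**
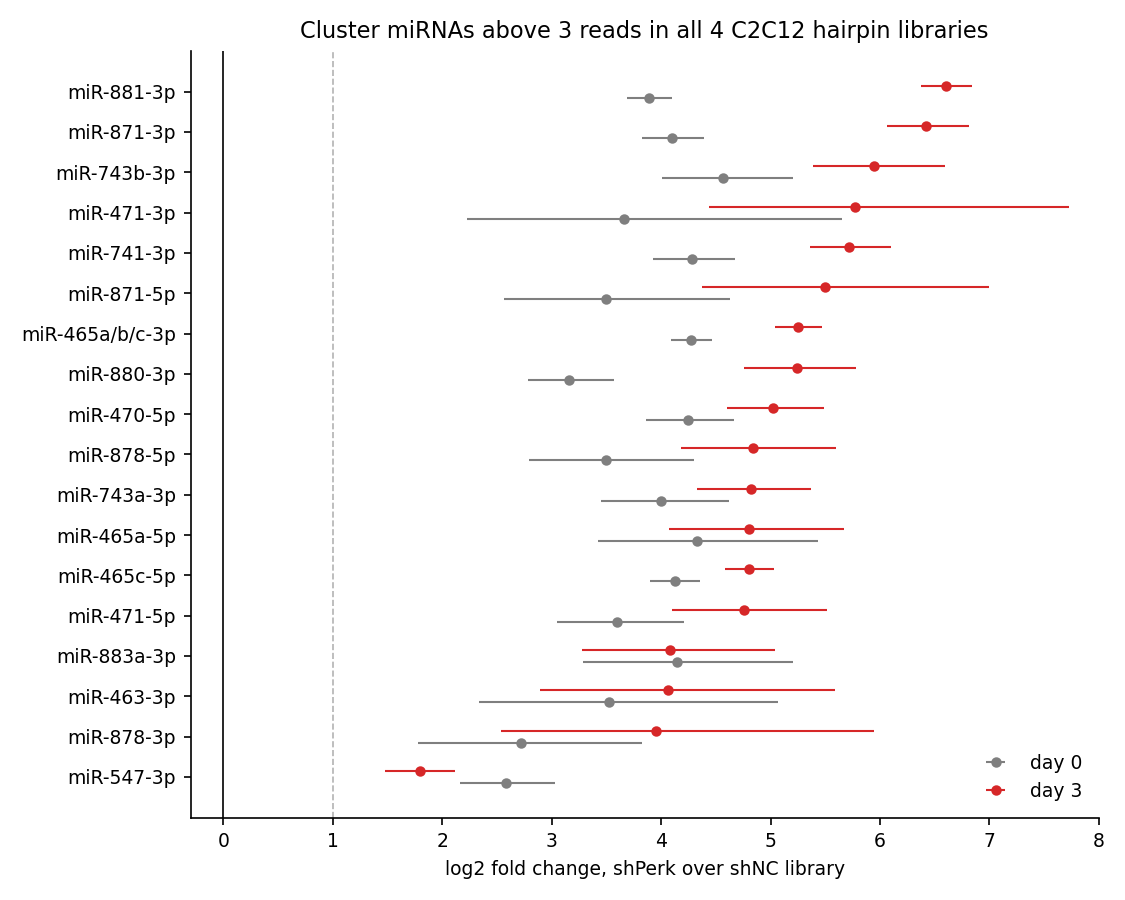
Log2 fold change of shPerk over shNC at day 0 (grey) and day 3 (red) for the 18 members above 3 reads in all 4 C2C12 hairpin libraries; bars are 95% intervals from reads and the dashed line marks a log2 fold change of 1. The red points stand right of the grey ones for 16 members, and miR-547-3p stands lowest at both times.

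The gap between knockdown and control was larger at day 3 than at day 0 for 16 of the 18 members above 3 reads in all 4 libraries. The share of all miRNAs with a higher log2 fold change at day 3 was not computed, so this count has no background. Between the times, the log2 fold change of miR-881-3p went up by 2.71, that of miR-871-3p by 2.33, that of miR-471-3p by 2.12 and that of miR-880-3p by 2.08. The day 0 and day 3 intervals of miR-881-3p, miR-871-3p and miR-880-3p did not overlap, while those of miR-471-3p did. With 1 library per condition the difference between the days could not be tested. The exceptions were miR-883a-3p, at 4.15 and 4.08, and miR-547-3p, at 2.58 and 1.79. For miR-547-3p the intervals, 2.16 to 3.03 at day 0 and 1.48 to 2.12 at day 3, did not overlap either. Of the 23 members tested at both days, those left out by the read limit went both ways. From day 0 to day 3, miR-741-5p went from 5.35 to 2.32, miR-201-5p from 3.79 to 1.66 and miR-463-5p from 3.31 to 2.52. miR-743a-5p went from 3.86 to 10.7 and miR-743b-5p from 5.07 to 5.36.

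The 2 tested arms of the second block had the lowest log2 fold changes of the tested members at day 3. miR-547-3p measured 4.95 CPM in shNC and 27.0 CPM in shPerk at day 0 (56 and 238 reads), and 10.1 and 27.8 CPM at day 3 (121 and 262 reads). Its log2 fold change at day 3 of 1.79 (1.48 to 2.12) was under the intervals of all 9 arms above 50 CPM, which all come from the first block. miR-201-5p had 2, 21, 8 and 16 reads in shNC day 0, shPerk day 0, shNC day 3 and shPerk day 3. Its log2 fold change was 3.79 (1.86 to 7.03) at day 0, near the members' median of 3.89, and 1.66 (0.37 to 3.11) at day 3. That day 3 interval overlapped those of miR-741-5p (0.84 to 4.16) and miR-463-5p (1.21 to 4.15) of the first block. miR-509 had 1 read in all 4 libraries together.

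**Figure D3:**
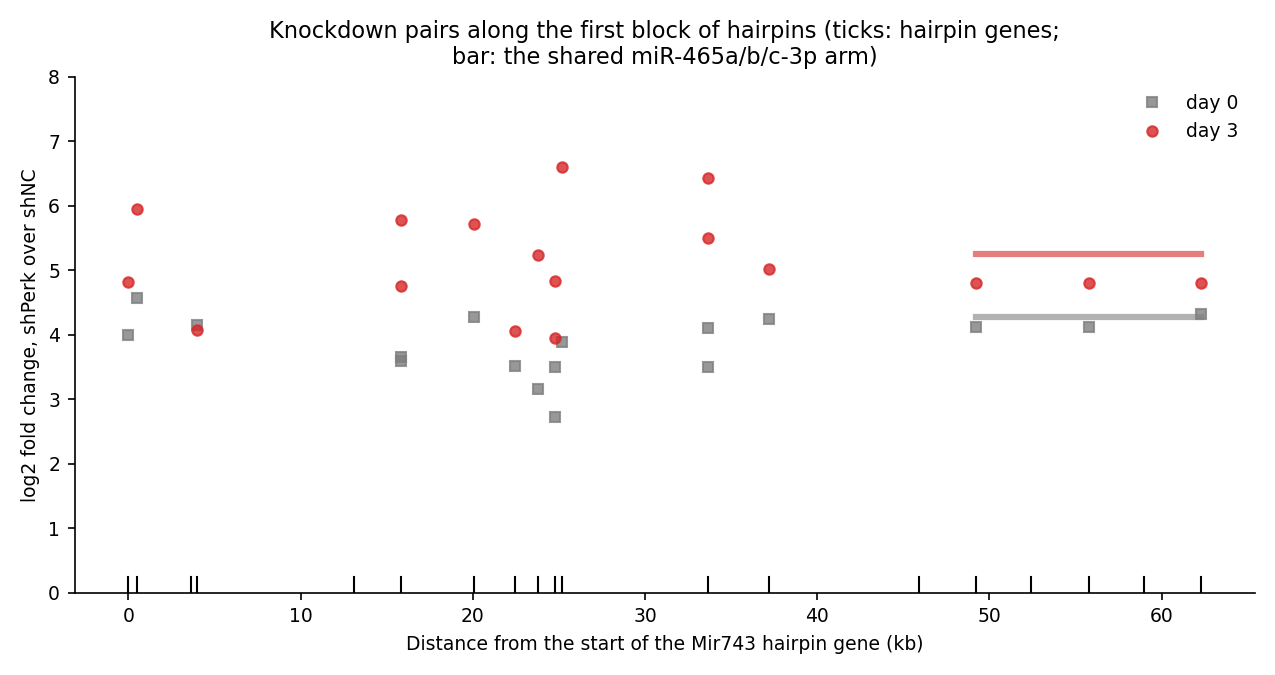
Log2 fold change of shPerk over shNC for members of the first block above 3 reads in all 4 hairpin libraries, plotted by distance in kb from the start of the Mir743 hairpin gene, at day 0 (grey) and day 3 (red); ticks are hairpin genes, the bars span the copies of miR-465a/b/c-3p, and miR-465c-5p is drawn at both of its copies. Both ends of the block and its middle hold log2 fold changes above 4 at day 3, and the highest, 6.60 for miR-881-3p, lies 25.2 kb from the start.

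Close neighbours in the first block differed from each other. Mir881 gave the highest day 3 log2 fold change of the members above 3 reads in all 4 hairpin libraries. It lies 358 bases from Mir878, whose arms miR-878-5p and miR-878-3p had log2 fold changes of 4.84 and 3.95 at day 3. miR-743a-3p and miR-743b-3p, from hairpins 437 bases apart and with 1 seed, had log2 fold changes of 4.82 (4.33 to 5.37) and 5.95 (5.39 to 6.59), intervals that did not overlap. At day 0 the intervals of these 2 arms did overlap, at 3.9999 (3.45 to 4.62) and 4.57 (4.004 to 5.21).

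In control cells the summed level of the cluster was similar at both days after TMM scaling. The day 3 and day 0 comparisons share their libraries with the knockdown comparisons. The summed level was 104 CPM at day 0 and 85.0 CPM at day 3 in shNC, a log2 ratio of -0.02 after TMM scaling (-0.15 to 0.10). This ratio depends on the scaling, at 0.016 with DESeq2's median of ratios and -0.29 with total counts. Of 14 members tested in shNC, 1 was called, against a background of 26.1% of 593 miRNAs called in either direction. The member called was miR-547-3p, with 56 and 121 reads and a log2 fold change of 1.29 (0.83 to 1.78).

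In shPerk cells the sum went from 1532 CPM at day 0 to 2944 CPM at day 3, a log2 ratio of 1.30 (1.27 to 1.33). Of 26 members tested, 13 were called higher, against 15.4% of 573 miRNAs, and 1 was called lower, against 14.0%. With scaling to total counts 8 were called higher and 3 lower. miR-881-3p stood out, from 266 to 984 CPM, a log2 fold change of 2.24 (2.18 to 2.31). miR-871-3p and miR-741-3p had log2 fold changes of 1.54 and 1.48, and miR-471-3p, from 37 to 142 reads, 2.20 (1.67 to 2.76). miR-465a/b/c-3p, the most abundant arm at day 0, had a log2 fold change of 0.66 (0.59 to 0.72), under the limit. The member called lower was miR-883b-5p, with 17 reads at day 0 and 0 at day 3. With 0 read as 3 it was 4.735-fold lower, and the interval of its log2 fold change ends at -1.79. None of the 26 passed when edgeR's exact test assumed a coefficient of variation of 0.4 between replicates.

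In the ATF4 pair the summed level of the cluster went from 47.6 RPM in the vector library to 103.8 RPM in the ATF4 library, a log2 ratio of 1.19 after TMM scaling. The RPM tables were normalised separately from the count tables, so levels are not compared across them. Of the 12 members listed, 8 had a log2 ratio above 1, against a background of 14.5% of 605 miRNAs, with no test on reads. miR-881-3p measured 5.58 RPM with vector and 19.1 RPM with ATF4, a log2 ratio of 1.84. miR-465a/b/c-3p, the highest member in both libraries, measured 14.7 and 25.1 RPM, a log2 ratio of 0.84. miR-465c-5p measured 8.32 and 19.4 RPM, and miR-871-3p 6.24 and 11.3 RPM, with log2 ratios of 1.29 and 0.92.

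The other abundant arms were under 8 RPM in both libraries. miR-741-3p measured 3.40 and 7.64 RPM, miR-470-5p 3.21 and 6.74 RPM, miR-880-3p 1.23 and 3.45 RPM, and miR-743a-3p 1.04 and 2.55 RPM. miR-547-3p of the second block measured 1.42 and 3.21 RPM, a log2 ratio of 1.24. miR-743b-3p was listed at 0 with vector and at 2.30 RPM with ATF4, and values under 1 RPM are listed at 0 in this table. It entered only through ATF4, and its log2 ratio of 1.27 rests on the 1 RPM set for 0. The 11 members above 0 with vector had log2 ratios from -0.14 to 1.84. Only miR-878-5p had a lower value with ATF4, at 1.23 and 1.07 RPM. The median log2 ratio of the 12 was 1.24, against -0.0039 over all 605. With edgeR's upper-quartile scaling only 2 of the 12 stayed above 1.

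In most cases the low RPM values were multiples of 1 step, which gives an estimate of the reads behind them. At the step of the vector library, 0.0945 RPM, the 5.58 RPM of miR-881-3p amounted to 59 reads, and at that of the ATF4 library, 0.0822 RPM, its 19.1 RPM amounted to 232 reads. Between 94.0% and 97.0% of the values under 40 RPM were whole multiples within 0.0051 RPM in the 4 RPM libraries.

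In P19 cells the cluster summed to 73.6 RPM in shNC and 178.8 RPM in shPerk, a log2 ratio of 1.89 after TMM scaling and of 1.28 with the values as deposited. miR-881-3p measured 7.96 and 44.4 RPM, a log2 ratio of 3.09 after TMM scaling. miR-871-3p measured 4.67 and 22.0 RPM, a log2 ratio of 2.84. These 2 arms were also the ones with the highest log2 fold changes in C2C12 at day 3 among members with a mean of at least 10 CPM.

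miR-465a/b/c-3p measured 20.2 and 37.0 RPM in P19 shNC and shPerk, and miR-465c-5p 12.1 and 21.5 RPM. At the steps of the libraries, 0.126 and 0.224 RPM, the values of miR-881-3p amounted to an estimated 63 and 198 reads. miR-470-5p measured 6.57 and 19.1 RPM, miR-741-3p 6.44 and 8.97 RPM, miR-880-3p 2.78 and 5.38 RPM, and miR-743b-3p 1.26 and 3.37 RPM.

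Of the 14 members listed in P19, 12 had a log2 ratio above 1 after TMM scaling, against a background of 17.7% of 696 miRNAs. Without TMM scaling 5 did. The median of the 14 was 1.46, against -0.04 over all 696, and scaling to the deposited totals moved the median of all miRNAs to -0.65. The arms miR-743a-3p (3.16 and 2.92 RPM) and miR-883a-3p (6.06 and 5.16 RPM) had lower deposited values in shPerk, and log2 ratios of 0.49 and 0.37 after TMM scaling. miR-878-5p was listed at 0 in shNC and at 4.26 RPM in shPerk, and miR-743a-5p at 0 and 1.35 RPM. These 2 entered only through shPerk, and their log2 ratios, 2.70 and 1.04, rest on the 1 RPM set for 0. The 12 members above 0 in shNC had log2 ratios from 0.37 to 3.09. No arm of the second block was listed in P19 cells.

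**Figure D4:**
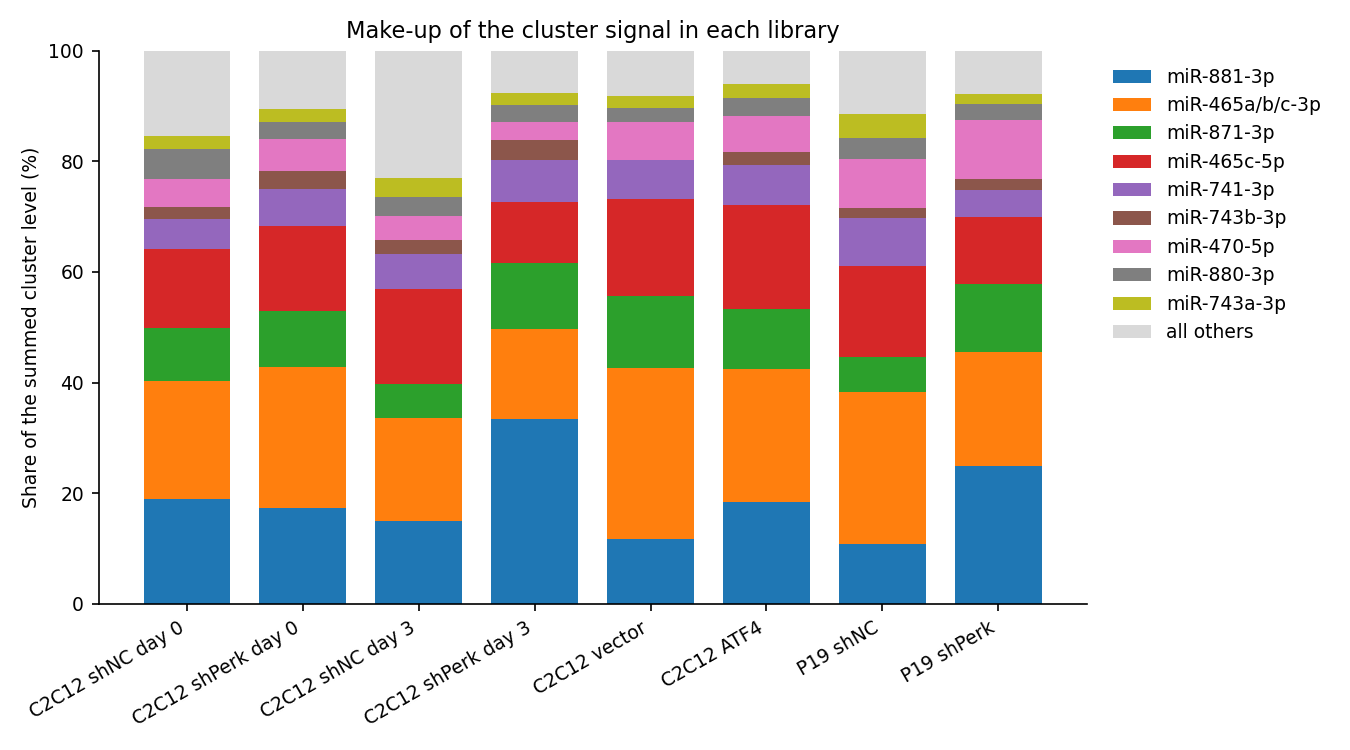
Share of the summed cluster level taken by each of the 9 most abundant members and by all others together, in percent, for each of the 8 libraries. miR-881-3p takes 33.4% in C2C12 shPerk at day 3 and 24.8% in P19 shPerk, and miR-465a/b/c-3p is the largest share in the other 6 libraries.

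A few arms made up most of the cluster in all 8 libraries. The 3 leading members held between 50.9% (C2C12 shNC, day 3) and 61.7% (C2C12 shPerk, day 3) of its reads or RPM. miR-465a/b/c-3p led in 6 of the 8 libraries, with 18.6% to 30.8%. In the other 2, C2C12 shPerk at day 3 and P19 shPerk, miR-881-3p led with 33.4% (32.9% to 34.0%) and 24.8%. Its share was 18.9% (16.7% to 21.3%) in C2C12 shNC and 17.4% (16.8% to 18.0%) in shPerk at day 0, intervals that overlapped. It was 10.8% in P19 shNC, and its interval in C2C12 shNC at day 3 was 12.9% to 17.3%.

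In C2C12 shNC at day 3 the second block weighed more, with miR-547-3p at 11.9% (9.94% to 14.0%) of cluster reads, against 0.944% (0.833% to 1.06%) in shPerk at the same day. The order of the 9 members listed above 0 in all 8 libraries was otherwise alike. Spearman's rho of their levels with those in C2C12 shNC at day 0 lay between 0.65 (P19 shNC) and 0.97 (C2C12 shPerk at day 0), over 9 arms that share sequence and library chemistry in every point.

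Arm use was strongly one-sided for most hairpins. Over the 4 C2C12 hairpin libraries, the 3p arm held more reads in 12 of 18 hairpins (miR-465a, b and c taken as 1) and the 5p arm in 6. No read minimum was set for this count, and the share over all miRNAs was not computed. It includes miR-509, miR-742 and miR-465d on 1, 4 and 9 reads, and miR-883b at 22 reads on the 3p arm and 21 on the 5p arm. miR-881 and miR-880 had 11996 and 1344 reads on the 3p arm and 0 on the 5p arm, and by exact Clopper-Pearson intervals the 3p share was at least 99.97% and 99.7%. miR-741 had 98.3% of its reads on the 3p arm, miR-871 94.8% and miR-743b 88.5%. miR-470 was the reverse, with 6 of 1832 reads on the 3p arm (0.328%). The miR-465a/b/c hairpins were nearest to balance among the abundant ones, at 58.6% (57.8% to 59.4%).

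**Figure D5:**
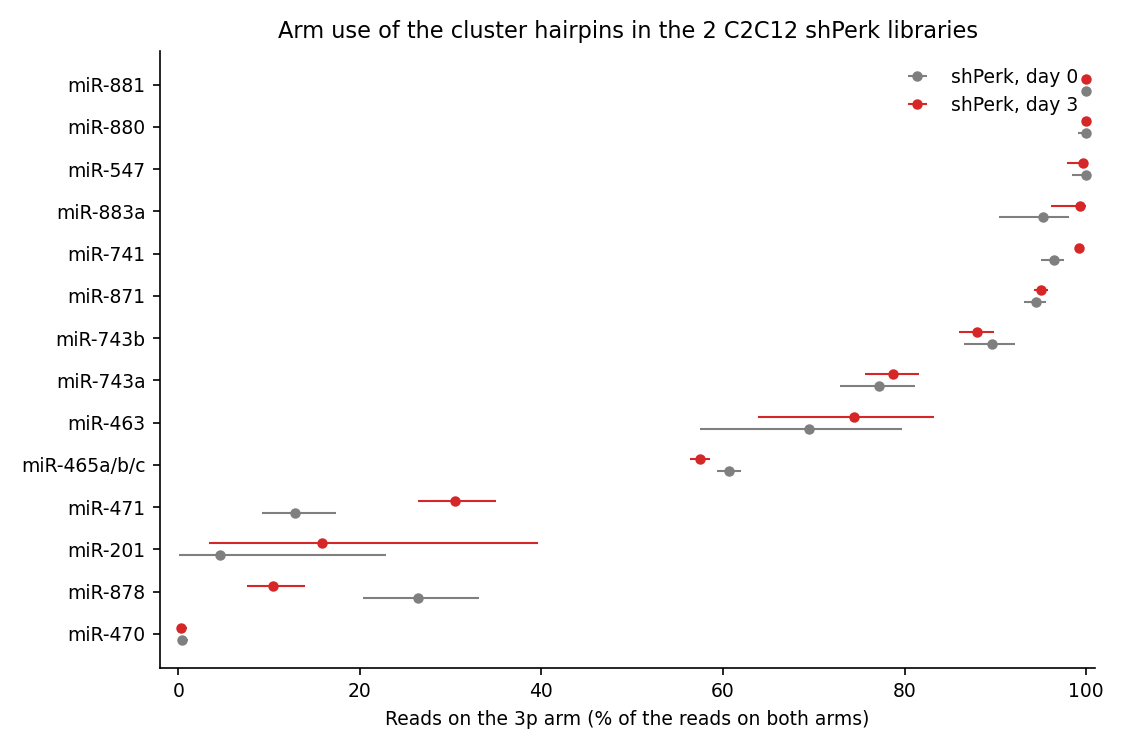
Share of reads on the 3p arm, in percent of reads on both arms, in the C2C12 shPerk libraries at day 0 (grey) and day 3 (red), for the 14 hairpins with at least 15 reads in each; bars are 95% Clopper-Pearson intervals. Most hairpins sit near 0% or 100%, and miR-471 and miR-878 show the widest separation between the days.

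The partner arms of the abundant members were read far less, and those of miR-880-3p and miR-881-3p had 0 reads. miR-871-5p had 10, 81, 6 and 173 reads in shNC day 0, shPerk day 0, shNC day 3 and shPerk day 3, miR-743b-5p 2, 51, 5 and 132, and miR-743a-5p 9, 94, 0 and 163. For miR-743a-5p at day 3 this is 87.05-fold higher in shPerk with 0 read as 3, and the interval of its log2 fold change starts at 6.13. miR-741-5p had 1, 33, 5 and 16 reads, and miR-470-3p 0, 3, 0 and 3. The log2 fold change of miR-741-5p at day 3, 2.32, was below the 5.71 of miR-741-3p, and between the shPerk days miR-741-5p had the lower count at day 3 while miR-741-3p was called higher. All 5 but miR-470-3p, read too rarely to tell, were higher in shPerk than in shNC at both days.

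Between the 2 shPerk libraries, 4 of 14 hairpins had 3p shares whose intervals did not overlap, against a background of 32.1% of 237 miRNA names with both arms and at least 15 reads in each library. The 3p share of miR-471 was 12.9% (9.24% to 17.3%) at day 0 and 30.5% (26.4% to 34.9%) at day 3. That of miR-878 was 26.4% (20.4% to 33.1%) and 10.5% (7.59% to 14.0%), the opposite direction. The shifts of miR-741 (96.5% and 99.2%) and of miR-465a/b/c (60.7% and 57.5%) were small. Between shNC and shPerk the intervals were apart for 3 of 11 hairpins at day 3, against 36.8% of 234 names, and for 0 of 11 at day 0, against 27.0% of 241. In no comparison did the share of members exceed that of all names, so such shifts were not more frequent in the cluster than elsewhere. Each share rests on 1 library.

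The 5p arms of the miR-465 copies could be told apart by sequence, and 1 of them held nearly all reads. They are shown with the bases that differ from miR-465c-5p in capitals.
miR-465c-5p: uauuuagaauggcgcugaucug
miR-465a-5p: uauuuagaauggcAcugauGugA
miR-465b-5p: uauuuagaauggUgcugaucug
miR-465d-5p: uauuuagaauggUAcugauGugA
miR-465c-5p had 168, 2076, 176 and 3064 reads in shNC day 0, shPerk day 0, shNC day 3 and shPerk day 3. miR-465a-5p had 10, 144, 15 and 264, miR-465b-5p, 1 substitution away, 0, 0, 0 and 10, and miR-465d-5p 0 in all 4. The ratio of knockdown to control was similar in the 2 that were read well, with log2 fold changes at day 3 of 4.80 (4.58 to 5.03) for miR-465c-5p and 4.80 (4.07 to 5.68) for miR-465a-5p.

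Several members were hardly seen. miR-465d-5p, miR-509-3p, miR-742-3p, miR-880-5p and miR-881-5p had 0 reads in all 4 hairpin libraries, which at 3 reads allows up to 0.25 to 0.341 CPM per library. Another 8 had at most 10 reads in each of them. Hairpins miR-742 and miR-465d, inside the first block between well expressed neighbours, had 4 and 9 reads over both arms and all 4 libraries.

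Other miRNAs of the X chromosome and of the male germ line were set beside the cluster. Of 40 other X-linked miRNAs tested at day 3, 1 was called higher and 24 lower in shPerk, against 21.0% higher and 20.7% lower over all miRNAs tested, with a median log2 fold change of -1.13. At day 0 the counts were 2 and 17 of 41, against 15.4% and 18.4%, with a median of -0.72. Of 11 autosomal arms known from male germ cells, 6 could be tested, all of the miR-34b/c and miR-449 type. All 6 were called higher at day 0, against that 15.4%, with a median of 1.55. At day 3 the counts were 0 higher and 1 lower, with a median of -0.20. The germ cell markers miR-34b-5p, miR-34c-5p and miR-449a-5p summed to 1262, 2974, 2801 and 1916 CPM in shNC day 0, shPerk day 0, shNC day 3 and shPerk day 3. In vector, ATF4, P19 shNC and P19 shPerk they summed to 1357, 2284, 1262 and 1646 RPM. Most of each sum was miR-34c-5p, at 1115 to 2570 CPM in the C2C12 hairpin libraries and 1095 to 2010 RPM in the others. With such levels in every library, these markers did not single out germ cells here. Between C2C12 shNC and shPerk the sum of these markers was higher in shPerk at day 0 and lower at day 3, while that of the cluster was higher in shPerk at both days.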

How the data were processed

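Small RNA libraries were made by ligating linkers, reverse transcription, PCR and gel selection, and reads were annotated with bowtie against mm10 (GRCm38). Bowtie's version is not given in the sources used here. The authors deposited raw read counts per mature miRNA for the 4 C2C12 hairpin libraries (8800977 to 11993448 reads each) and RPM for the ATF4 and P19 pairs, whose depth is unknown beyond the steps of low values. The fold and p-value columns deposited by the authors were not used.

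Fits ran over all miRNAs at 1 CPM or more in 1 of the 2 libraries, with TMM factors and edgeR 4.0.16 fold changes at its default prior count. Reads were tested by a two-sided exact binomial test with Benjamini-Hochberg adjustment. In the RPM tables a listing at 0 was set to 1 RPM, and a log2 ratio beyond 1 was called without a test. The fits were tested on simulated data. The members and lists were chosen with earlier results of these data known. Values are given in full for members at 50 CPM or RPM or more and their partner arms, and non-members would be named at a mean of 10 CPM or more with a day 3 change at or above the members' median, which none had. Alternatives were other scalings (DESeq2 1.42.0 among them), filters, prior counts, an assumed coefficient of variation, another value for 0 and arms counted singly. Positions of hairpins and arms are from RefSeq, and those of neighbouring genes from the GENCODE annotation. Tools were R 4.3.3 and Python 3.11.15 with scipy 1.17.1.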

Additional observations from a re-analysis of the deposited data

Results flagged for a closer look

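3 arms of the first block moved in opposite directions between day 0 and day 3 in the 2 C2C12 lines, with intervals from reads that left out 0 in both. The share of all miRNAs with such opposite changes was not computed. The signs were also opposite for miR-465a/b/c-3p (-0.21 in shNC and 0.66 in shPerk), miR-470-5p (-0.15 and 0.52) and miR-471-5p (-0.43 and 0.63). Their shNC intervals held 0. With 1 library per condition the difference between the lines was not tested. For miR-871-3p the log2 fold change of day 3 over day 0 was -0.68 in shNC and 1.54 in shPerk. For miR-880-3p it was -0.71 in shNC and 1.27 in shPerk. For miR-881-3p it was -0.36 in shNC and 2.24 in shPerk. In shNC none of miR-871-3p, miR-880-3p and miR-881-3p passed the fold limit, and the intervals of miR-880-3p and miR-881-3p ended close to 0, at -0.10 and -0.06. Their values there rest on 62 and 113, 35 and 65, and 153 and 223 reads at day 3 and day 0.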

How the results depend on the processing

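No paired analysis was possible because each condition had 1 library, and for the same reason no replicate could be left out. The counts of members called higher in shPerk, 24 at day 3 and 25 at day 0, kept within 1.5 times under all alternatives but the filter at a mean of 10 CPM, where fewer members were tested and all 13 and 11 of them were called. With an assumed coefficient of variation of 0.4 they were 19 and 21. For day 3 against day 0 in shNC, 2 members were called with no filter, 0 with the filter at 10 CPM and 0 at a coefficient of 0.4, against 1. In shPerk 0 were called at 0.4, against 14. For ATF4, 2 were called with upper-quartile scaling and 2 with the filter at 10 RPM, against 8. For P19, 5 were called with the deposited totals and 5 with the filter at 10 RPM, against 12. The sum's log2 ratio of day 3 over day 0 in shNC, -0.02, was 0.016 with DESeq2's median of ratios and -0.29 with total counts. These alternatives were chosen after seeing the data, as were all for single members. Scaling to totals moved the median of all miRNAs at day 3 from 0.01 to -0.32 and the calls over all miRNAs from 121 higher and 119 lower to 83 and 160. It moved them from 71 and 84 to 48 and 129 in the shNC time comparison, from 88 and 80 to 48 and 150 in that of shPerk, and from 123 and 123 to 46 and 247 in P19. Upper-quartile scaling moved ATF4 from 88 and 54 to 53 and 124. Among single called members, miR-201-5p at day 3 was no longer called with totals, at a log2 fold change of 1.33. Nor were 5 of shPerk day 3 against day 0, miR-465a-5p (0.77), miR-743a-3p (0.82), miR-743a-5p (0.69), miR-871-5p (0.99) and miR-880-3p (0.91), where miR-741-5p (-1.14) and miR-883b-3p (-1.66) became called lower, and 7 of the 12 in P19 were no longer called, among them miR-465a/b/c-3p (0.87), miR-465c-5p (0.83), miR-741-3p (0.48) and miR-880-3p (0.95), while miR-881-3p and miR-871-3p were.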
